A study of Mus musculus with 25 samples.

Results

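The SOCS and STAT genes described here are Cish, Socs1, Socs2, Socs3, Stat3, Stat4, Stat5a, Stat5b and Stat6. They were chosen by name, as the rows with these gene symbols in each library's expression table, and make up 9 of 22985 genes. All 9 passed the filter on low values, which asked for at least 1 FPKM (sequenced fragments scaled to transcript length and library depth) in at least 2 libraries. The rule uses gene names and no measured value.

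STAT proteins are transcription factors that wait in the cytoplasm until a cytokine binds its receptor. JAK kinases on the receptor then phosphorylate the STATs, which pair, enter the nucleus and bind DNA. Cish and the Socs genes are among the genes that STATs switch on, and their proteins bind the receptor or the JAK and damp the signal, so the pathway carries its own brake. In regulatory T cells (Treg), IL-2 acts through STAT5, made from the neighbouring genes Stat5a and Stat5b, to keep up the transcription factor Foxp3.

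RNA was sequenced from T cells of spleen and lymph node of C57BL/6 mice, in 25 libraries of 14 groups. DKO Treg lacked both NF-kB subunits p65 and c-Rel, p65KO Treg lacked p65 (gene Rela), c-RelKO Treg lacked c-Rel (gene Rel), and WT Treg and WT Tconv (conventional T cells) carried neither deletion. Unstimulated libraries numbered 2 for DKO Treg, 2 for c-RelKO Treg, 3 for p65KO Treg, 4 for WT Treg and 2 for WT Tconv. Stimulated libraries, from cells kept 3 h with 2 µg/ml of antibodies to CD3 and CD28 plus IL-2, numbered 2 for DKO Treg, 1 for c-RelKO Treg, 1 for p65KO Treg, 2 for WT Treg and 2 for WT Tconv. A separate stimulated set handled with TAT-Cre, a recombinase that enters cells, had 1 library each for Treg labelled FoxP3 del, Treg labelled NFkB del, and Treg and Tconv controls without deletion. The sources used here do not give whether the controls of that set received TAT-Cre, which promoter drove any Cre in the mice, which exons were deleted or how old the mice were. Since no label ties replicates to separate animals, the p-values cover the spread among these libraries alone, and that spread may be technical.

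The labels number the libraries, and consecutive numbers fall into 5 runs. Run 1 (libraries 1 and 2) and run 2 (6 and 7) each hold 1 WT Treg and 1 p65KO Treg library. Run 3 (10 to 16) and run 4 (21 to 30) hold all other groups, and the TAT-Cre set is run 5 (31 to 34). No label names the runs as batches. Deviations from the group means went together within a run (mean correlation 0.432 over 51 pairs of libraries), so results are given without and with the run as a block, and as ratios between libraries of the same run. Implied depth was 15.4 to 52.8 M (mega) fragments per library.

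Rel was 1.76 to 2.23 FPKM in all libraries of c-RelKO and DKO Treg, stimulated ones included, and 27.5 to 298 in those of WT Treg. Rela transcript was not lost without p65 but lay below WT Treg of the same run in every pair. In p65KO Treg it was 58.0, 69.3 and 79.8 FPKM, against 64.9, 99.1 and 124 in WT Treg. In DKO Treg it was 76.1 and 56.3 FPKM, against 129.7 and 124. Foxp3, the defining gene of Treg, was 8.01 and 21.2 FPKM in DKO Treg and 0.541 and 0.927 in WT Tconv. It was 136 and 254 in c-RelKO Treg, 140 to 282 in p65KO Treg and 129 to 351 in WT Treg. By Foxp3 the DKO cells thus lay between WT Tconv and the other unstimulated Treg. Their Il2ra, another Treg marker, was 460 and 454 FPKM, against 177 to 491 in WT Treg and 11.7 and 10.9 in WT Tconv. The 5 Treg markers examined summed to 1356 and 1385 FPKM in DKO Treg, 883 to 2531 in WT Treg and 275 and 255.5 in WT Tconv. Of these 5, 2 were called lower in DKO Treg than in WT Treg. Several libraries stood apart. WT Treg replicate 1 and p65KO Treg replicate 1, both of run 1, had the lowest Cish, Socs1, Stat3, Stat5a and Stat5b of all unstimulated Treg libraries outside DKO. All 15 cytokine genes examined were lower in the library labelled p65KO Treg stim than in the one labelled p65KO Treg replicate 3, whereas in the other pairs 11 to 14 of 15 were higher after stimulation. c-RelKO Treg replicate 2 had 13320 FPKM of the haemoglobin gene Hba-a1 and 78.0 of the B cell gene Cd79a, against 3.59 and 3.32 in replicate 1. Stimulated and unstimulated WT Treg of the same run differed by 2-fold or more in 38 and 39 of 11532 genes, against 805 and 1308 genes in DKO Treg and 1169 and 1028 in WT Tconv.

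The promoters of 3 of the feedback genes are shown first, because STATs bind sites of the form TTCNNNGAA (GAS sites) and these genes are known STAT targets. No promoter window was available for Socs2. Each run covers 250 bases before and 50 after the annotated start, read 5′ to 3′ on the gene's own strand, from RefSeq on build GRCm38.p6, with the GAS form in capitals. Cish lies at chr9:107296409-107296708 (+ strand), Socs1 at chr16:10785487-10785786 (- strand) and Socs3 at chr11:117969317-117969616 (- strand).
Cish: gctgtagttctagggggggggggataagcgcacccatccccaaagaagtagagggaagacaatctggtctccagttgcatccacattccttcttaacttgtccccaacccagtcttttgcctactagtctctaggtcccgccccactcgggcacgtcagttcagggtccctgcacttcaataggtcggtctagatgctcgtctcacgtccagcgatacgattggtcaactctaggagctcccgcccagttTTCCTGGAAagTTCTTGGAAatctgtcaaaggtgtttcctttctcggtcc
Socs1: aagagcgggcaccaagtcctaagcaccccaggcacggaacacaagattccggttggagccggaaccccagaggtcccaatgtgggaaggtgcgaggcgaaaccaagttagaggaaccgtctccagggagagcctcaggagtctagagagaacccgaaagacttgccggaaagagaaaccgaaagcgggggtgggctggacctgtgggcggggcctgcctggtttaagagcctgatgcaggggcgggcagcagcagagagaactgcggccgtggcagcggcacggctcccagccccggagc
Socs3: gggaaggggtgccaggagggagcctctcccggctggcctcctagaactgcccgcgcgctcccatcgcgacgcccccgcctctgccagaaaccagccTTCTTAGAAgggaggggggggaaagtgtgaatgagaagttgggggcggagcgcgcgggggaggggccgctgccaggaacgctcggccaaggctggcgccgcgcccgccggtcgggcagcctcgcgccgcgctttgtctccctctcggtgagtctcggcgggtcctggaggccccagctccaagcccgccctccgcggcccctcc
The Cish window held 2 GAS forms, starting at bases 1 and 12 after the start site, and the Socs3 window held 1, 154 bases before it. No match was found in the Socs1 window or in those of the 5 STAT genes. None of the 11 windows of the 8 members with a window held the longer form TTCNNNNGAA or the kappa-B form GGGNNNTTCC on either strand. Among all 32851 promoter windows of this length, 8.30% held TTCNNNGAA, 6.95% TTCNNNNGAA and 5.56% GGGNNNTTCC. A match is a run of letters and was not tested for binding, and the forms were not looked for elsewhere in the genes.

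The files place the genes on build mm9. Cish spans chr9:107199019-107204292, Socs1 chr16:10783901-10785629, Socs2 chr10:94874123-94879491 and Socs3 chr11:117827400-117830680. Stat5b (chr11:100642044-100711899), Stat5a (chr11:100720664-100746483) and Stat3 (chr11:100748123-100800825) stand side by side within 158781 bases, with 8765 bases between Stat5b and Stat5a and 1640 between Stat5a and Stat3. Stat4 spans chr1:52065087-52164028 and Stat6 chr10:127080041-127098043. Stat6 overlaps the entry of Nab2, and no source used here gives the strand setting of the counting, so reads of these 2 genes may be divided between them. Stat5a and Stat5b transcripts share 608 stretches of 50 bases, out of 4149 and 5488, and how reads from them were divided is not recorded, so the split between Stat5a and Stat5b is uncertain. No other pair of members shared a stretch of that length.

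The inhibitors set Treg apart from Tconv. Cish, Socs1, Socs2 and Socs3 were all higher in unstimulated WT Treg than in WT Tconv, while no STAT gene passed the test. Cish, an inhibitor induced by IL-2 and STAT5, had 107, 437, 495 and 532 FPKM in WT Treg replicates 1 to 4, against 40.1 and 36.7 in WT Tconv. Its lowest Treg library was still above both Tconv libraries. The log2 difference was 3.08 ± 0.56 (SE, limma adjusted p = 0.0029), and within runs 3 and 4 the ratio was 12.3 and 14.5.

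Socs1, whose protein blocks JAK kinases and restrains interferon-gamma and IL-2 signals, had 86.7, 188, 244.8 and 244.1 FPKM in WT Treg and 24.96 and 20.5 in WT Tconv. The difference was 2.91 ± 0.43 (adjusted p = 0.000617), with ratios of 9.81 and 11.9 within runs. Socs2, best known for restraining growth hormone signals, had 28.5, 38.7, 61.9 and 75.8 FPKM in WT Treg and 3.68 and 2.497 in WT Tconv. Of the 9 genes it showed the largest difference (3.59 ± 0.34, adjusted p = 1.75e-05) and was low in Tconv. Socs3, whose protein binds the IL-6 receptor chain gp130 (Il6st) and limits STAT3, had 72.2, 121, 158 and 123 FPKM in WT Treg and 50.05 and 33.8 in WT Tconv. The groups did not overlap, and the difference was smaller than that of the other 3 (1.45 ± 0.31, adjusted p = 0.00758). Without WT Tconv replicate 2 this call was lost. Of all genes tested, 7.03% were called higher and 5.53% lower in WT Treg.

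**Figure D1:**
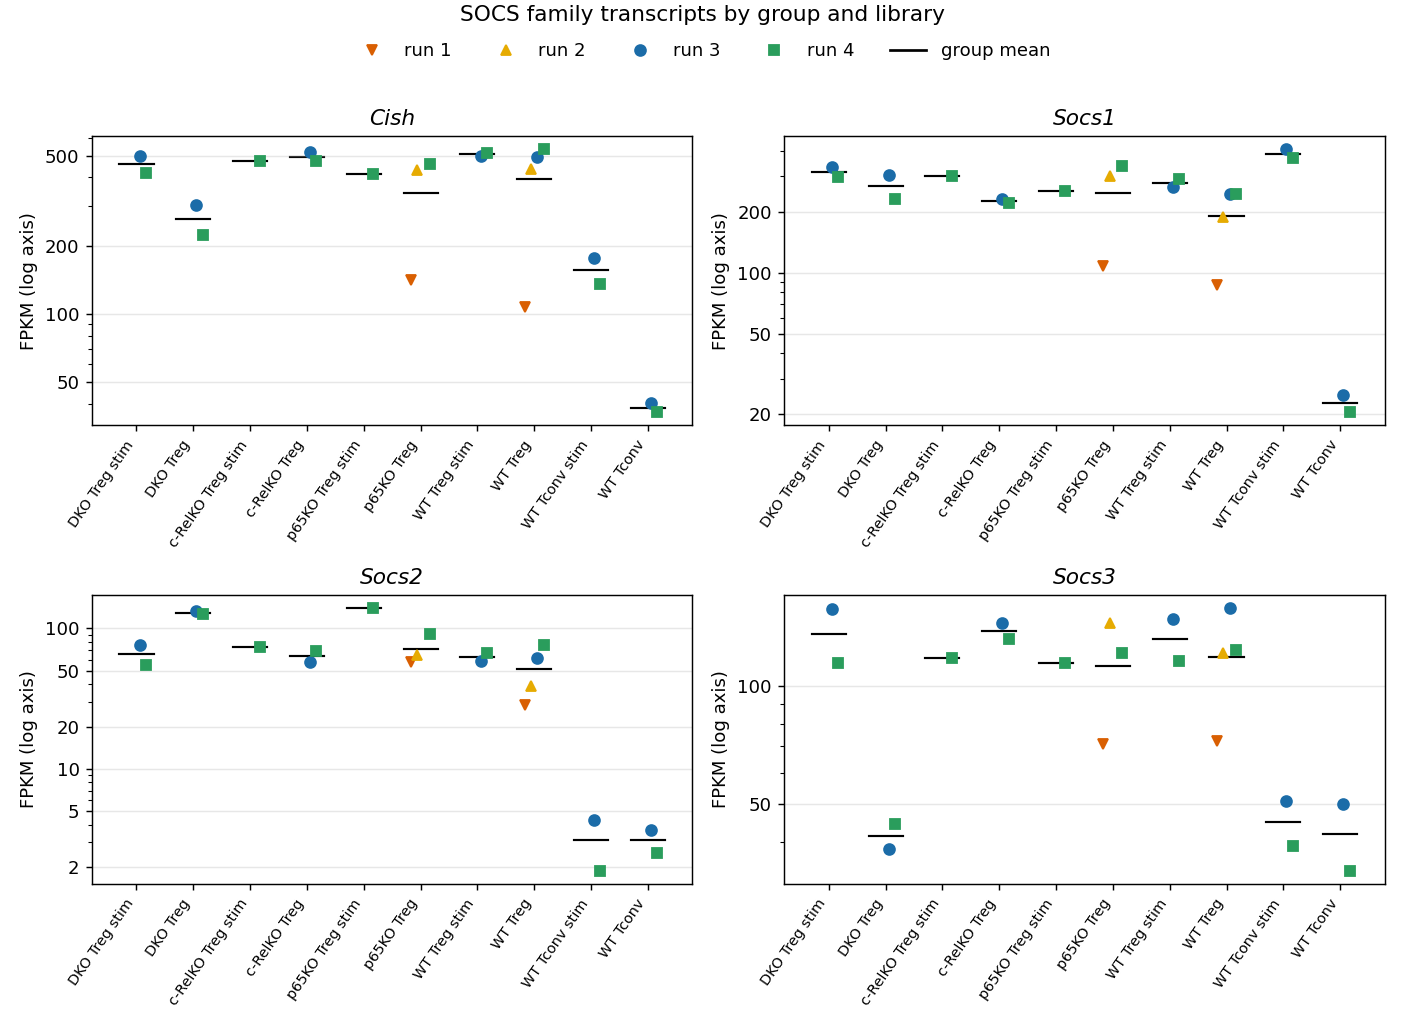
FPKM (log axis) of Cish, Socs1, Socs2 and Socs3 in each library of the 10 groups outside the TAT-Cre set, with the marker showing the run and the bar the group mean. The Treg groups sit above unstimulated WT Tconv for all 4 genes except Socs3 in unstimulated DKO Treg (38.3 and 44.5 FPKM), and Socs1 in stimulated Tconv (406 and 366 FPKM) reaches the Treg range.

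The calls of Stat3, Stat4, Stat5a and Stat6 in this comparison depended on the run block. Stat3, the signal carrier of IL-6 and IL-21, had 84.6, 153, 315 and 288 FPKM in WT Treg and 132 and 104 in WT Tconv, so the groups overlapped through replicate 1. Stat4, which carries the IL-12 signal, had 59.96, 52.2, 205 and 203 FPKM in WT Treg and 108 and 97.9 in WT Tconv. Stat5a had 46.6, 117, 271 and 318 FPKM in WT Treg and 155 and 135 in WT Tconv. In each of these 3 genes the WT Treg libraries of runs 3 and 4 lay above the Tconv libraries of the same run, and the library of run 1 lay below both. Blocking on the run, Stat3 (1.36 ± 0.18, adjusted p = 0.000125), Stat4 (0.94 ± 0.19, adjusted p = 0.00214) and Stat5a (0.89 ± 0.22, adjusted p = 0.00645) were higher in WT Treg. Stat6, the carrier of the IL-4 signal, was lower (-0.37 ± 0.10, adjusted p = 0.00968), with 98.2 against 129 FPKM in run 3 and 124 against 165 in run 4. Stat5b passed neither test and had nearly the same level in both cell types, with within-run ratios of 0.976 and 0.939. The block called 8 of the 9 genes, against 45.8% of all genes tested.

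Among other genes of the pathway, the IL-2 receptor chains Il2ra (4.48, adjusted p = 1.87e-05) and Il2rb (2.67, adjusted p = 0.000135) were higher in WT Treg, and so was Il10ra, a chain of the IL-10 receptor (2.19, adjusted p = 0.000613). Il7r, the IL-7 receptor, was lower (-3.28, adjusted p = 0.000369). In all, 7 of 20 receptor chains were higher and 1 was lower. Of 9 further SOCS, STAT and JAK genes tested, the kinase gene Jak3 was higher (1.41) and Jak1 lower (-0.70). Of 16 genes known as STAT targets, 9 were higher and 1 lower. The higher ones include the Treg markers Foxp3 and Il2ra, whose difference follows from the cells compared, and Il2ra is also counted among the receptor chains. The median log2 difference was 1.24 over these targets and 0.66 over the 9 genes, where the median over all genes was 0. Of 8 NK and CD8 T cell markers, Klrk1 and Eomes were lower in WT Treg, and the 8 summed to 12.4 to 55.45 FPKM in WT Treg and 24.2 to 31.99 in WT Tconv. None of 8 myeloid markers was called, and they summed to 56.3 to 181 FPKM in WT Treg and 57.15 to 60.2 in WT Tconv. The part of these markers in the results was not tested. In bulk RNA, fewer cells of a type and less RNA per cell cannot be told apart, here and in all results that follow.

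**Figure D2:**
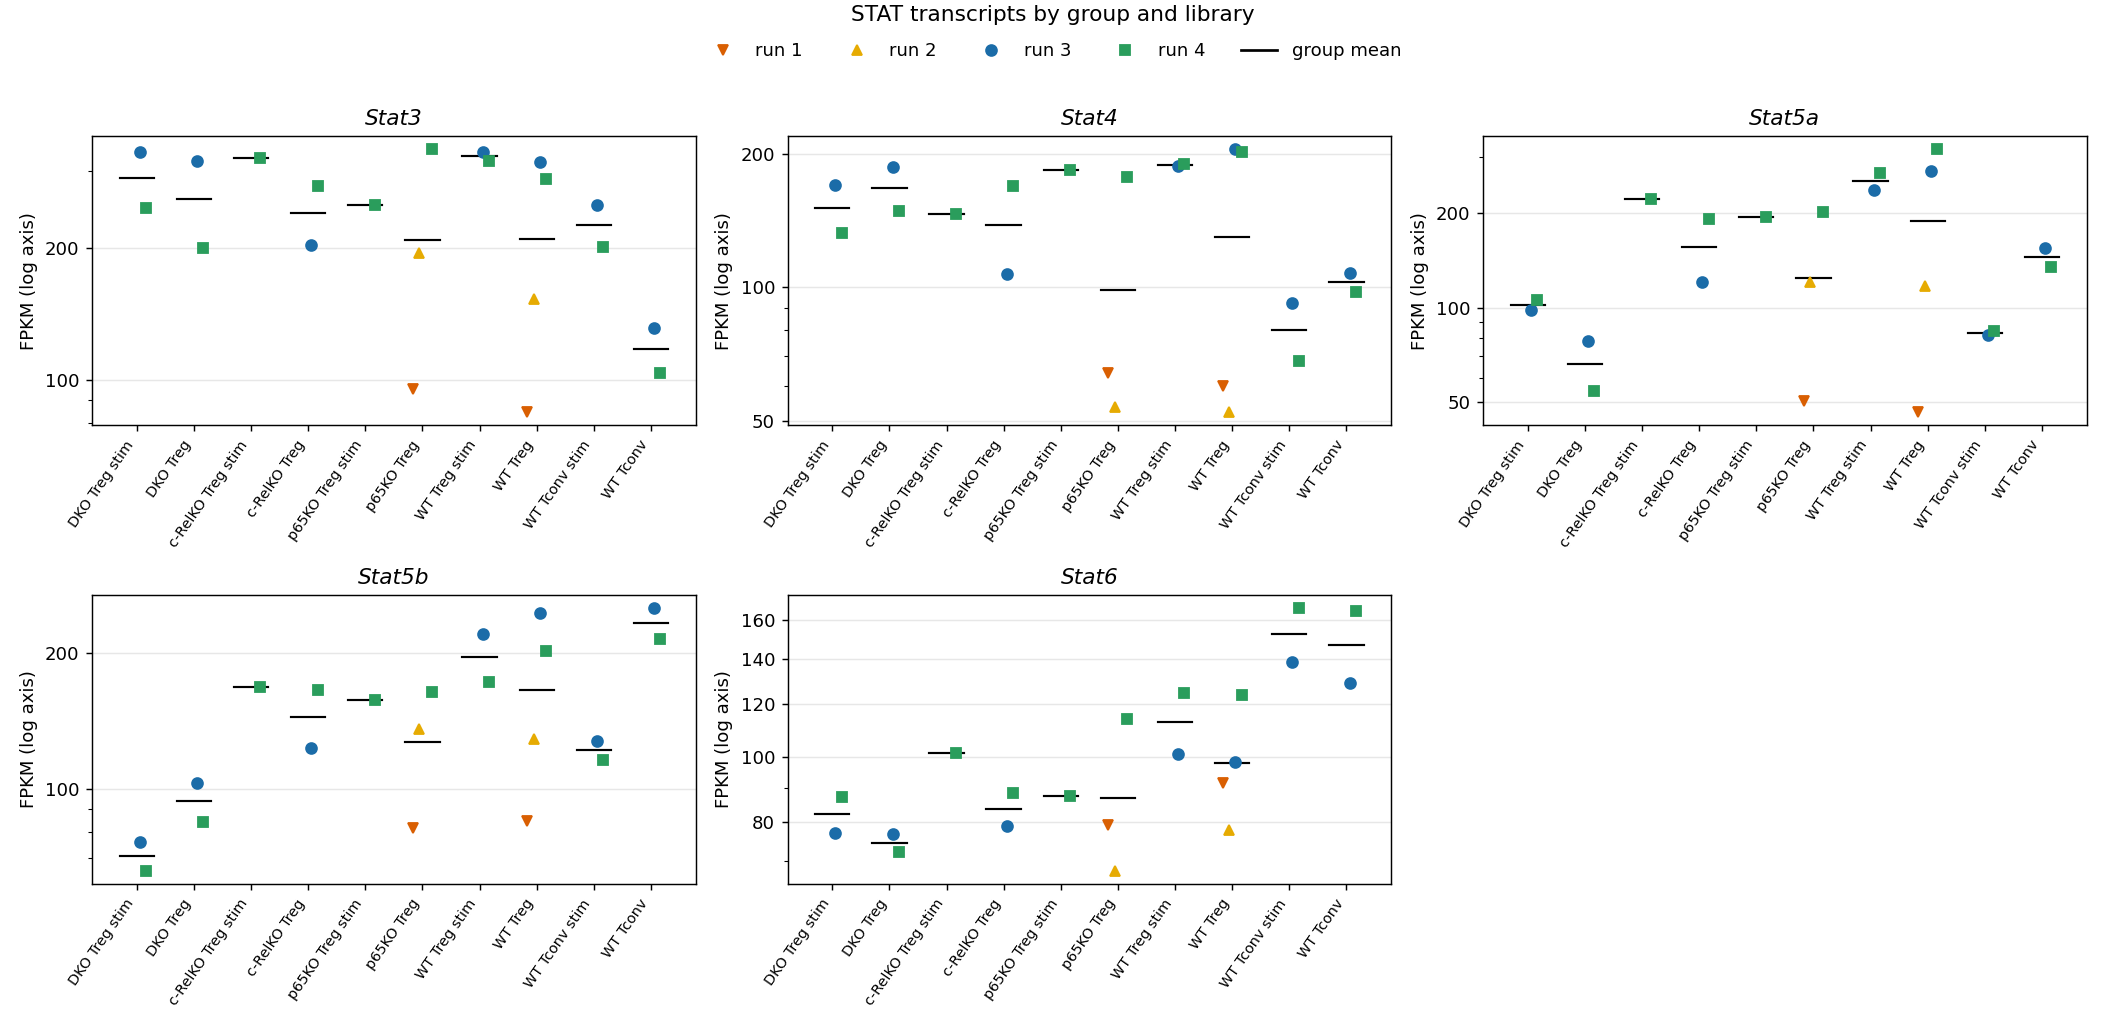
FPKM (log axis) of Stat3, Stat4, Stat5a, Stat5b and Stat6 by library, with the marker showing the run and the bar the group mean. Within WT Treg the libraries of runs 1 and 2 lie below those of runs 3 and 4 for Stat3, Stat4, Stat5a and Stat5b, and DKO Treg has the lowest Stat5a and Stat5b of the unstimulated groups within runs 3 and 4.

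Loss of both p65 and c-Rel split the inhibitors. In unstimulated DKO Treg, Socs2 was higher and Socs3 lower than in WT Treg, and Socs1 passed no test. Socs3 had 38.3 and 44.5 FPKM in DKO Treg. WT Treg had 72.2, 121, 158 and 123. Both DKO libraries were below every WT Treg library and in the range of WT Tconv. The difference was -1.44 ± 0.31 (adjusted p = 0.00286), with within-run ratios of 0.243 and 0.362. Socs2 had 133 and 127 FPKM in DKO Treg, and WT Treg had 28.5, 38.7, 61.9 and 75.8. The groups did not overlap (1.42 ± 0.34, adjusted p = 0.00608), and the within-run ratios were 2.15 and 1.68. Without DKO Treg replicate 1 the Socs2 call was lost.

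Cish had 303 and 223 FPKM in DKO Treg, below the 495 and 532 of WT Treg in the same runs but above the 107 of WT Treg replicate 1. It was lower in DKO Treg with the run as a block (-0.93 ± 0.14, adjusted p = 0.000137), where 61.2% of all genes were called. Without the block Cish was not called (-0.36 ± 0.56, adjusted p = 0.666). Socs1 had 304 and 232 FPKM in DKO Treg against 244.8 and 244.1 in the matching WT Treg, above in run 3 and below in run 4. Within the same libraries Socs2 was thus called higher and Socs3 lower in both fits, Cish lower only with the block, and Socs1 in neither fit.

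Both Stat5 genes were lower in DKO Treg once libraries of the same run were compared. Stat5a had 78.4 and 54.5 FPKM in DKO Treg, against 271 and 318 in WT Treg of runs 3 and 4, which gave ratios of 0.289 and 0.171. Stat5b had 103 and 84.4 FPKM in DKO Treg, against 246 and 202. Blocked on the run, the differences were -2.02 ± 0.22 for Stat5a (adjusted p = 1.24e-05) and -1.17 ± 0.16 for Stat5b (adjusted p = 5.8e-05). Without it, adjusted p was 0.172 and 0.144; WT Treg replicates 1 and 2, outside runs 3 and 4, had 46.6 and 117 FPKM of Stat5a. Without WT Treg replicate 1 both were called without a block. Stat6 was also lower with the block (-0.59 ± 0.10, adjusted p = 0.000311), and its 77.0 and 72.3 FPKM in DKO Treg lay below all 4 WT Treg libraries (91.4, 78.0, 98.2 and 124). Stat3 and Stat4 passed neither test. In the fit without a block 19.4% of all genes were called higher and 13.6% lower, and 2 of the 9 members were called. The block called 6 members and 61.2% of all genes, so the members' share was close to the background in both fits. The median log2 difference was -0.36 over the 9 genes and 0.06 over all genes.

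The receptor genes upstream of STAT3 moved in the same comparison. Il6st, the gp130 chain, was lower in DKO Treg (-2.81, adjusted p = 5.21e-05), as was Il6ra, the IL-6 receptor (-2.44, adjusted p = 0.00091), and Il21r, the receptor for IL-21 (-1.79, adjusted p = 0.000372). Of 20 receptor chains 5 were lower and 1 higher. Of 14 cytokines tested 9 were higher, led by Il5 (7.83, adjusted p = 1.27e-05) and Il13 (7.19, adjusted p = 5.77e-05). Among the negative regulators outside the SOCS family, Sh2b3, an adaptor that binds JAKs, was lower (-1.32) and Ptpn11, a phosphatase gene, higher (0.62). NK and CD8 T cell markers moved with these results: the 8 summed to 129 and 226 FPKM in DKO Treg and to 12.4 to 55.45 in WT Treg, and 4 of the 8 (Klrk1, Nkg7, Ncr1 and Gzma) were higher. Of 7 B cell markers none was called, and 1 of 8 myeloid markers, Cst3, was higher, with sums of 142 FPKM in both DKO libraries and 56.3 to 181 in WT Treg. The part of these markers in the results was not tested.

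**Figure D3:**
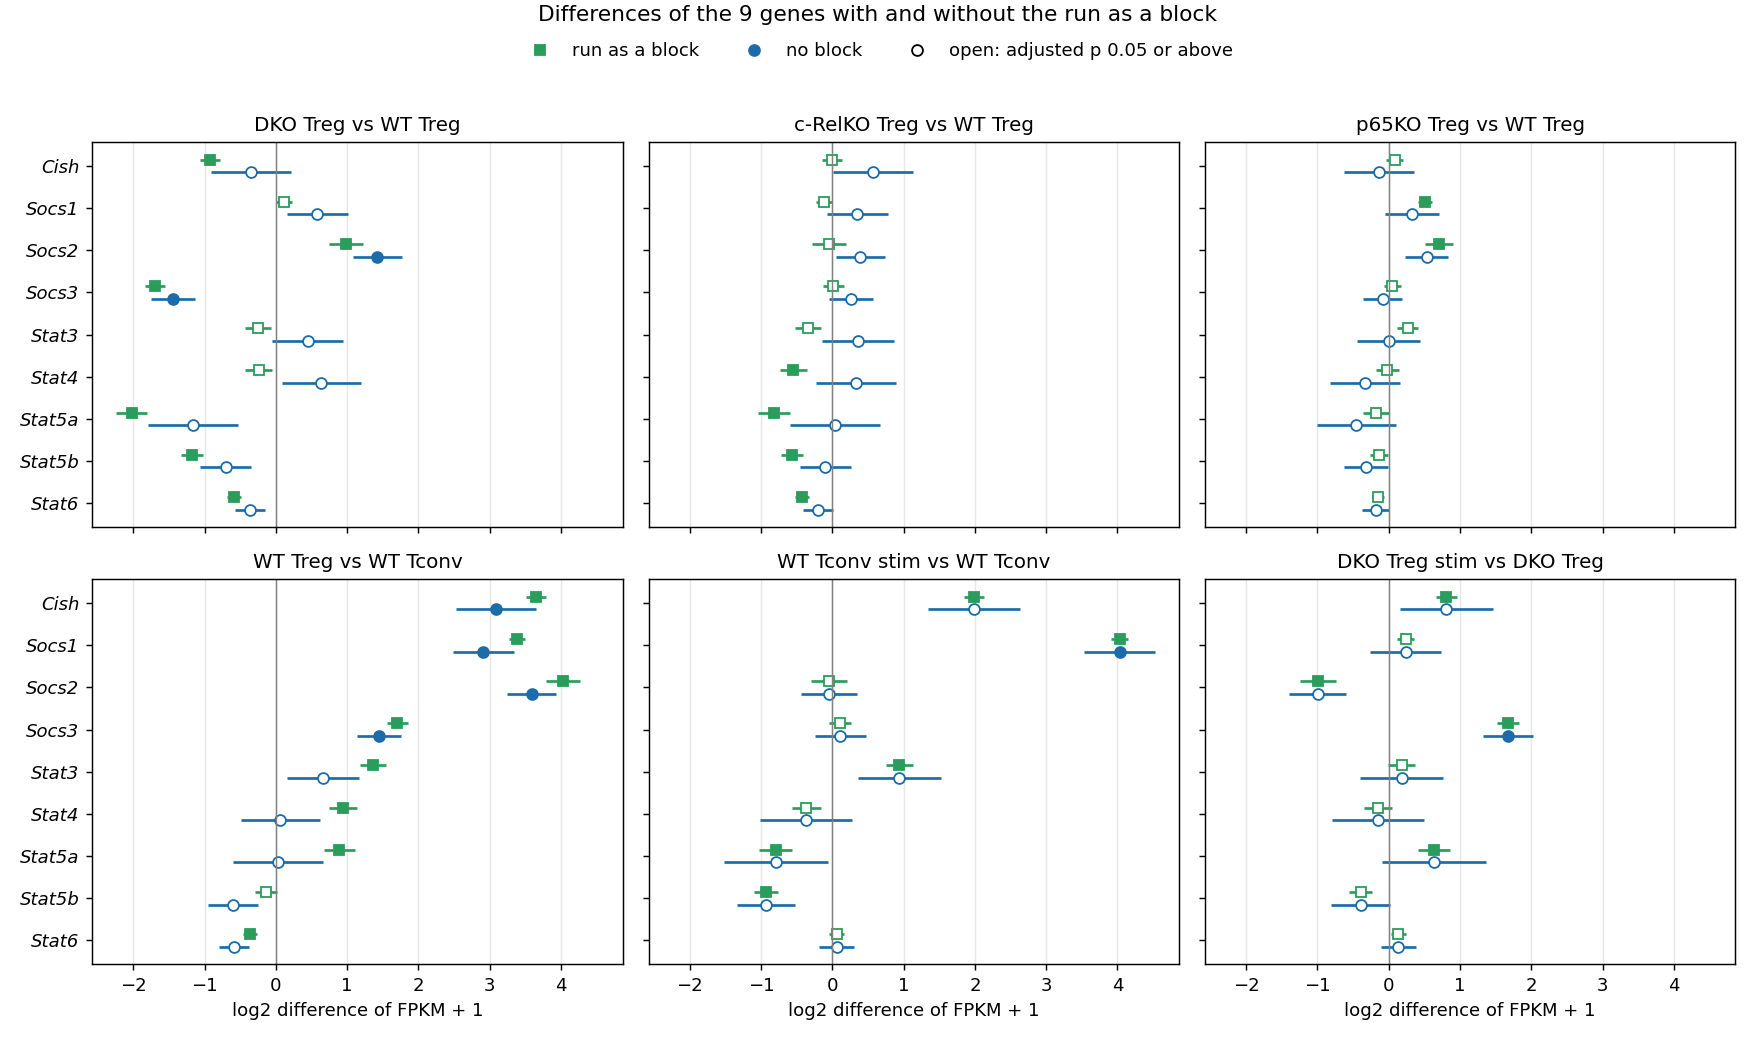
Log2 differences of FPKM + 1 (points) with standard errors (bars) of the 9 genes in 6 comparisons, with the run as a block (squares) and without (circles), filled where adjusted p was under 0.05. The block narrows the errors. In c-RelKO Treg against WT Treg it moves Stat3, Stat4 and Stat5a to the left of 0, for Stat5a to -0.82, where Stat5b and Stat6 already lay without it.

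With loss of c-Rel alone no inhibitor was called. In c-RelKO Treg, Cish had 519 and 471 FPKM against 495 and 532 in run-matched WT Treg, Socs1 had 231 and 221 against 244.8 and 244.1, and Socs3 had 144 and 131 against 158 and 123. Socs2 had 57.4 and 69.3 FPKM against 61.9 and 75.8. All 8 within-run ratios of these 4 genes were between 0.885 and 1.07, and none of the 4 passed a test in either fit.

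Within runs the STAT genes had lower values in c-RelKO Treg, in a share of calls close to that of all genes. Stat5a had 121 and 190.5 FPKM in c-RelKO Treg, against 271 and 318 in run-matched WT Treg. Stat5b had 123 and 166 FPKM, against 246 and 202, and Stat4 had 107 and 169, against 205 and 203. All 5 STAT genes were below WT Treg in both runs. Blocking on the run, Stat4 (-0.55, adjusted p = 0.0386), Stat5a (-0.82, adjusted p = 0.0114), Stat5b (-0.56, adjusted p = 0.0135) and Stat6 (-0.42, adjusted p = 0.00523) were lower. Without it none of the 9 passed, and Stat4 (0.33) and Stat5a (0.04) had the opposite sign. The WT Treg mean then includes the libraries of runs 1 and 2. Background rates were 1.62% of all genes higher and 8.98% lower without the block, and 41.6% called with it, against 4 of 9 members. c-RelKO Treg replicate 2, whose haemoglobin and B cell transcripts were high, was then left out together with both p65KO libraries of run 4. That left only replicate 1, which had the lower value of each STAT gene in c-RelKO Treg. The blocked differences, resting on that 1 c-RelKO library, were -0.72 for Stat3, -1.02 for Stat4, -1.29 for Stat5a, -0.97 for Stat5b and -0.37 for Stat6. In replicate 2 B cell markers summed to 224.5 FPKM, myeloid markers to 341 and erythroid markers to 17780, against 14.1, 158 and 8.04 in replicate 1. WT Treg had 5.61 to 67.8, 56.3 to 181 and 5.54 to 521. The NK and CD8 T cell markers Klrk1, Klrb1c and Eomes were higher in c-RelKO Treg, where the 8 summed to 150.3 and 67.8 FPKM, against 12.4 to 55.45 in WT Treg. The part of these markers in the results was not tested. The median log2 difference was 0.33 over the 9 genes and -0.13 over all genes without the block. The cytokine receptor gene Il12rb2, a chain of the IL-12 receptor that signals through STAT4, was higher in c-RelKO Treg (2.69, adjusted p = 0.0333). Without the block, 2 of 20 receptor chains were higher and 0 lower. Of 14 cytokines tested 5 were higher and 0 lower, and of 9 further SOCS, STAT and JAK genes 0 were higher and 2 lower.

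Loss of p65 alone went with more Socs1 and Socs2 in each run. Socs1 had 109, 300.2 and 336 FPKM in p65KO Treg replicates 1 to 3, against 86.7, 188 and 244.1 in run-matched WT Treg. Socs2 had 58.1, 64.3 and 90.7 FPKM, against 28.5, 38.7 and 75.8. Both genes were higher in 3 of 3 runs, with ratios up to 1.59 for Socs1 and 2.04 for Socs2. The run 4 values are from the library labelled p65KO Treg replicate 3, whose label is in doubt. With the labels of both p65KO libraries of that run exchanged, Socs1 would be 253 FPKM against 244.1 and Socs2 139.9 against 75.8. Blocking on the run, Socs1 (0.50 ± 0.10, adjusted p = 0.0153) and Socs2 (0.71 ± 0.20, adjusted p = 0.0463) were higher, and without it neither passed. The block called 2 of 9 members and 8.82% of all genes, and the fit without it 0.0347% higher and 0.00867% lower. Without the 3 doubted libraries, among them the one labelled p65KO Treg replicate 3, neither passed with the block (adjusted p = 0.0826 and 0.104), and the differences were 0.49 for Socs1 and 0.86 for Socs2. Summed over 8 genes, NK and CD8 T cell markers were also higher in p65KO Treg of each run. The sums were 299.9, 86.1 and 37.8 FPKM against 55.45, 44.5 and 18.0 in WT Treg. Of the 8 genes, 0 were called without the block and 1 was higher with it. Their part in the result was not tested. Cish, Socs3 and the STAT genes passed no test. Of these, Stat3 was, with the labels as given, above WT Treg in 3 of 3 runs, with ratios of 1.13, 1.27 and 1.17. Stat6 was below in 3 of 3, with ratios of 0.867, 0.868 and 0.92. With the run 4 labels exchanged, Stat3 would be 251 FPKM against 288, below WT Treg, and Stat6 87.6 against 124.

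Stimulation raised Socs1 in Tconv more than any other member. After 3 h with antibodies and IL-2, Socs1 had 406 and 366 FPKM in WT Tconv, against 24.96 and 20.5 in unstimulated WT Tconv. The ratio was 16.3 and 17.9 within runs (4.03 ± 0.50, adjusted p = 0.000239). Cish had 177 and 136 FPKM with stimulation and 40.1 and 36.7 without, a difference of 1.99 that passed with the run as a block (adjusted p = 3.25e-06) but not without it (adjusted p = 0.0633). Socs2 (4.33 and 1.87 FPKM with stimulation, 3.68 and 2.497 without) and Socs3 (50.7 and 38.9 with, 50.05 and 33.8 without) passed no test.

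The STAT genes of Tconv moved apart. Stat3 was, with the run as a block, higher after stimulation (252 and 202 FPKM against 132 and 104, adjusted p = 0.00217). Stat5a was lower (82.2 and 84.1 against 155 and 135, adjusted p = 0.0159), and so was Stat5b (127 and 116 against 252 and 215, adjusted p = 0.000893). Stimulated and unstimulated libraries did not overlap for any of these 3 genes. Stat4 (92.2 and 68.1 FPKM against 108 and 97.9) and Stat6 (138 and 167 against 129 and 165) passed neither test. Of all genes 6.69% were called higher and 5.16% lower without the block, against 1 of 9 members, and 43.1% were called with it, against 5. Il15ra and Il2ra, receptor chains for IL-15 and IL-2, were higher (4.08 and 3.03), as were the cytokine genes Lif (4.50) and Il2 (3.73). The STAT target genes Tbx21, Ccnd2, Irf1 and Myc were higher by 4.47, 2.70, 1.42 and 3.57 on the log2 scale, and 6 of 16 such genes were higher in all.

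In WT Treg no member was called with stimulation in either fit. Cish had 498 and 513 FPKM with stimulation and, in the same runs, 495 and 532 without, Socs1 264 and 289 against 244.8 and 244.1, and Socs3 148 and 115 against 158 and 123. The within-run ratios of all 9 genes lay between 0.842 and 1.18. No gene of 11532 was called (0% higher, 0% lower, 0% with the block) and 311 had an unadjusted p under 0.05, so the members' absence of calls is not particular to them. The change of Socs1 with stimulation differed between the cell types: the response of WT Treg minus that of WT Tconv was -3.39 ± 0.66 (adjusted p = 0.0308), and -3.86 with the run as a block (adjusted p = 5.67e-07). This difference was called for 0.0867% of genes in the positive and 0.945% in the negative direction. Blocked, 16% of genes were called, among them Cish (-1.96, adjusted p = 0.000297) and Stat5b (0.81, adjusted p = 0.0323). Without the block the Socs1 call was lost on leaving out most single libraries, and with the block it rested on the 2 pairs of each cell type shown in the plot of stimulated and unstimulated libraries.

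**Figure D4:**
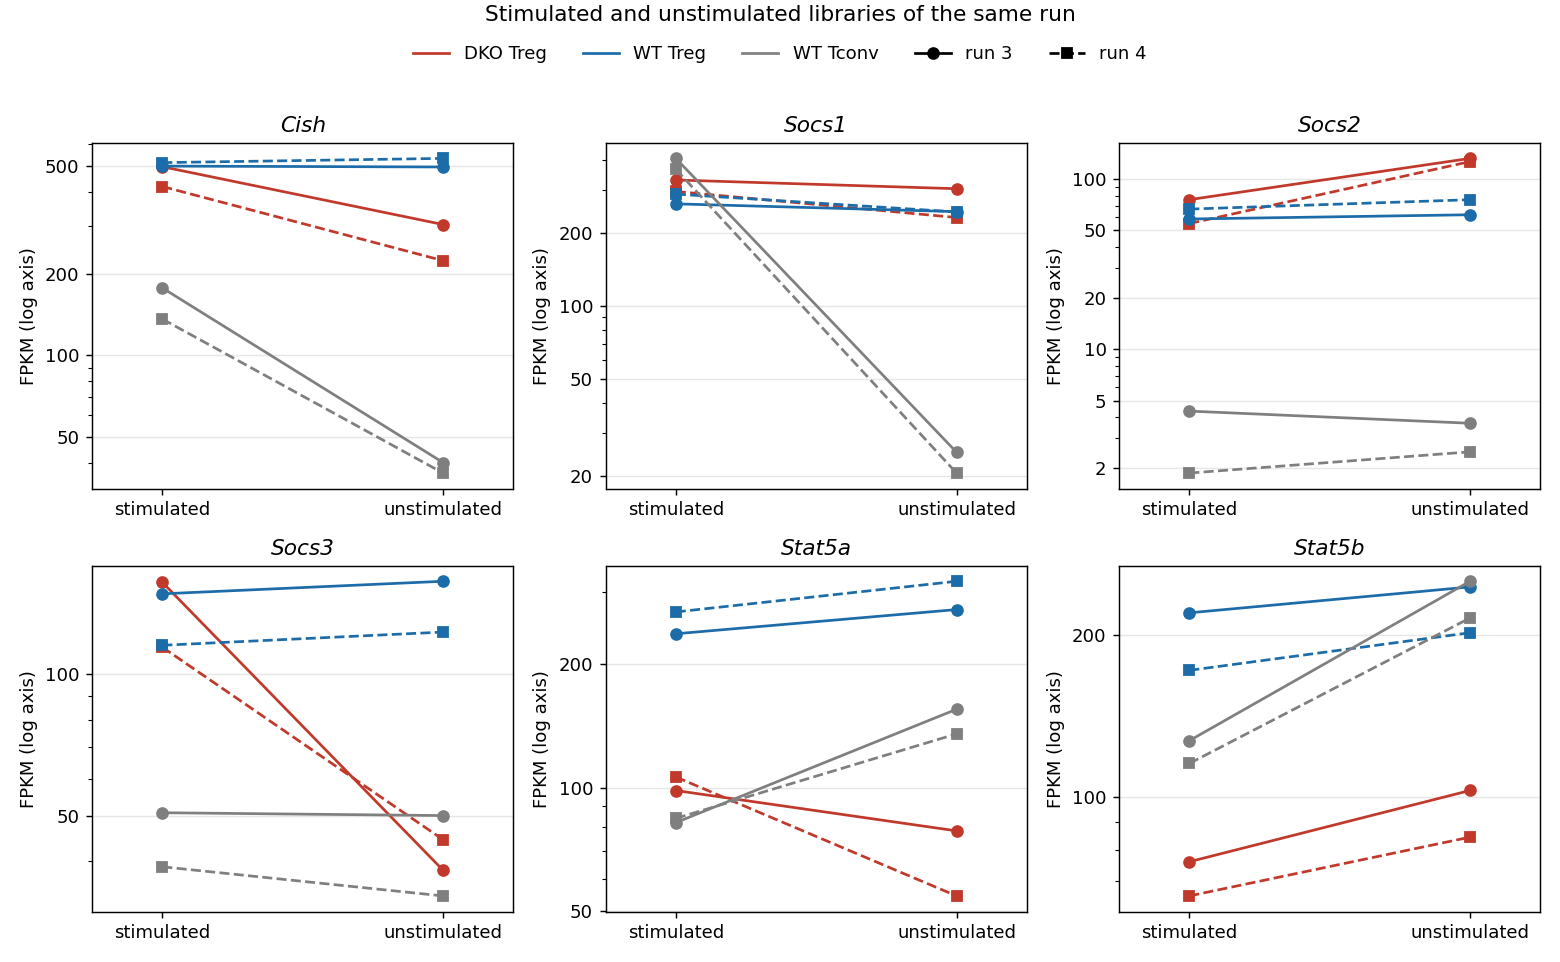
FPKM (log axis) of 6 of the genes in stimulated (left) and unstimulated (right) libraries of the same run, joined by a line, for DKO Treg, WT Treg and WT Tconv. Socs1 is steep in WT Tconv (406 against 24.96 FPKM in run 3), Socs3 is steep in DKO Treg (157 against 38.3 FPKM in run 3), and the WT Treg lines are nearly flat.

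Of the 9 genes Socs3 differed most between stimulated and unstimulated DKO Treg. Socs3 had 157 and 114 FPKM in stimulated DKO Treg, against 38.3 and 44.5 in the unstimulated cells (1.67 ± 0.36, adjusted p = 0.0101). The libraries did not overlap, and the within-run ratios were 4.09 and 2.57. Leaving out any of the 4 libraries lost the call without a block. In the blocked fit, Socs3 (adjusted p = 1.6e-05), Cish (0.81, adjusted p = 0.00116) and Stat5a (0.64, adjusted p = 0.0435) were higher and Socs2 lower (-0.997, adjusted p = 0.00813). Cish had 496 and 419 FPKM with stimulation and 303 and 223 without, and Socs2 had 75.9 and 54.9 against 133 and 127. Socs1, Stat3, Stat4, Stat5b and Stat6 passed neither test, with within-run ratios of 0.738 to 1.28. Background rates were 3.86% higher and 6.13% lower, and 42.1% with the block. The response of DKO Treg minus that of WT Treg was 1.73 for Socs3 (adjusted p = 0.000577) and 0.78 for Cish (adjusted p = 0.0267) with the block. Without it no member was called (0.737% of genes positive and 0.234% negative, 14% called with the block). Of 14 cytokines 13 were higher in stimulated DKO Treg, among them Il3 (10.86), Il2 (9.87) and Csf2 (8.30), and Stat2 (-1.12), a STAT gene of interferon signalling, was lower.

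Between stimulated groups, Stat5a, Stat5b and Stat6 were the members called in DKO Treg against WT Treg. Stat5b had 76.0 and 65.7 FPKM in stimulated DKO Treg, against 219.9 and 172 in stimulated WT Treg (-1.45 ± 0.41, adjusted p = 0.0151). Stat5a had 98.3 and 106 FPKM, against 237 and 268, a difference of -1.29 that passed with the run as a block (adjusted p = 0.000469). Stat6 had 77.1 and 87.3 FPKM, against 101 and 124, and was lower with the block as well (-0.45, adjusted p = 0.00275). The groups did not overlap for any of the 3 genes. Stat3 and Stat4 passed neither test. The Stat5b call was lost without WT Treg stim replicate 1 or without DKO Treg stim replicate 2. The 4 inhibitors passed no test here, with within-run ratios of 0.816 to 1.30. All genes were called at 16.6% higher and 16.2% lower, and at 62.7% with the block, against 1 and 3 members. Il21r, Ifnar1 and Ifngr2, receptor chains for IL-21 and the interferons, were lower in stimulated DKO Treg (-1.79, -2.08 and -3.42). Without a block, 8 of 20 receptor chains were lower and 1 higher. All 14 cytokines tested were higher, and 4 of 9 further SOCS, STAT and JAK genes were lower. Of 8 NK and CD8 T cell markers 4 were higher. The 8 summed to 189.6 and 343.7 FPKM in stimulated DKO Treg and to at most 18.56 in stimulated WT Treg. The part of these markers in the results was not tested.

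Stimulated WT Treg kept more Socs2 and Socs3 than stimulated WT Tconv. Socs2 had 58.4 and 66.8 FPKM in stimulated WT Treg, against 4.33 and 1.87 in stimulated WT Tconv (4.02 ± 0.40, adjusted p = 5.37e-05). Socs3 had 148 and 115 FPKM, against 50.7 and 38.9 (1.53 ± 0.36, adjusted p = 0.0186), and this call was lost without any 1 of the 4 libraries. Of all genes 3.62% were higher and 3.02% lower. The blocked fit called 8 of the 9 genes and 37% of all genes. Stat3 passed neither test (332 and 317 FPKM against 252 and 202). Cish, Stat4, Stat5a and Stat5b were then also higher in Treg, and Socs1 (264 and 289 FPKM against 406 and 366) and Stat6 lower. For Socs1 the direction was thus opposite to that in unstimulated cells.

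The single knockouts had 1 stimulated library each, with no replicate check, and are set beside stimulated WT Treg of the same run. c-RelKO Treg stim had 471 FPKM of Cish, 300.3 of Socs1, 73.6 of Socs2 and 118 of Socs3, against 513, 289, 66.8 and 115 in WT Treg stim. Its Stat5a was 221 FPKM against 268, and its Stat5b 168 against 172. The ratios of the 9 genes ran from 0.771 for Stat4 to 1.10 for Socs2. The library labelled p65KO Treg stim had 139.9 FPKM of Socs2, against 66.8 in WT Treg stim, the only member with a ratio above 1 there (2.10). Its label is in doubt, so no direction is drawn from it for stimulation.

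The TAT-Cre set had 1 library per group, and its ratios are given with no test. The library labelled FoxP3 del, whose Foxp3 was 266 FPKM against 86.7 in the Treg control, had 23.95 FPKM of Socs3 against 10.01 and 28.1 of Socs2 against 14.4. Because Foxp3 was not lower there, no direction is drawn from that label. The library labelled NFkB del had 197 FPKM of Cish against 246 in the Treg control, 123 of Socs1 against 134, 12.2 of Socs3 against 10.01 and 112 of Stat5a against 139. Its Rel was 38.7 FPKM against 171, while its Rela was 123.7 against 124.6. Its haemoglobin transcript Hba-a1 was 1114 FPKM against 46.9, and the part of this in the ratios was not tested. All 9 ratios of that library lay between 0.800 and 1.22. Socs2 was 14.4 FPKM in the Treg control and 1.40 in the Tconv control, a ratio of 10.3. Cish was 246 FPKM in the Treg control and 255 in the Tconv control, a ratio of 0.966, where runs 3 and 4 gave 2.82 and 3.78. The other ratios of Treg to Tconv control were 0.582 for Socs1, 1.71 for Socs3, 0.945 for Stat3, 2.06 for Stat4, 1.77 for Stat5a, 1.70 for Stat5b and 1.02 for Stat6. Socs3 was 5.85 to 23.95 FPKM in the whole set, below the 33.8 to 158 of all other libraries.

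The levels can be put in order over the 7 groups with a library in both run 3 and run 4. Cish was highest in WT Treg (513 ± 26.5 FPKM, SD, n = 2), WT Treg stim (506 ± 10.5), c-RelKO Treg (495 ± 33.8) and DKO Treg stim (457 ± 54.4), neighbours whose ranges overlapped. DKO Treg (263 ± 56.7), WT Tconv stim (156 ± 29.1) and WT Tconv (38.4 ± 2.43) followed, each apart from the next. Cish thus formed a top level and 3 steps below it. Socs1 was highest in WT Tconv stim (386 ± 28.1) and lowest in WT Tconv (22.7 ± 3.16), with all Treg groups between 226 and 314 FPKM on average. Socs2 was highest in DKO Treg (129.9 ± 3.98), then 4 Treg groups with overlapping neighbours (62.6 to 68.8), and both Tconv groups at 3.1 FPKM. Socs3 had 4 Treg groups with overlapping neighbours at 132 to 140.2 FPKM, and WT Tconv stim, WT Tconv and DKO Treg at 41.4 to 44.8, again overlapping. Stat5a ran from WT Treg (271 and 318 FPKM in runs 3 and 4) through WT Treg stim (252 ± 21.8) and c-RelKO Treg (156 ± 49.2) to DKO Treg (66.5 ± 16.9). Stat5b was highest in WT Tconv (233 ± 25.8) and WT Treg (224 ± 30.8), which overlapped, and lowest in DKO Treg stim (70.8 ± 7.30). Stat6 was highest in the Tconv groups (147 and 152 FPKM on average) and lowest in DKO Treg (74.6 ± 3.33). Stat3 was lowest in WT Tconv (118 ± 19.6), apart from all others, and Stat4 in WT Tconv stim (80.2 ± 17.0).

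The balance of the 2 Stat5 transcripts varied with the run as well as the group. Stat5a over Stat5b, as FPKM, was 0.762 and 0.645 in DKO Treg, 1.29 and 1.62 in DKO Treg stim, 1.10 and 1.57 in WT Treg of runs 3 and 4, and 0.617 and 0.628 in WT Tconv. WT Treg replicates 1 and 2, of runs 1 and 2, had ratios of 0.551 and 0.907, so over all 4 libraries WT Treg spanned the values of DKO Treg and WT Tconv. The sum of both was 181 and 139 FPKM in DKO Treg, while WT Treg had 131, 246, 517 and 519.8 in replicates 1 to 4 and WT Tconv 407 and 350.2. These ratios were not tested and carry the uncertainty of reads that fit both genes.

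The genes whose pattern was most like each member were taken by Pearson's r over the 10 group means of log2(FPKM + 1), a description with no test in which groups share runs. For Cish these were Samsn1 (0.97), Eif5a (0.96) and Tnfrsf9 (0.96). For Socs1 they were Nudt4 (0.97), Prnp (0.94) and Gcsh (0.93), and for Socs2 H2afz (0.98), Pdia4 (0.98) and Il2rb (0.98). Il2rb encodes the beta chain of the IL-2 receptor. For Socs3 they were Adora2a (0.95), Map3k8 (0.94) and Nfkbiz (0.93). Stat5a was closest to Snhg12 (0.92), Phlpp1 (0.91) and Zbtb1 (0.90), and Stat5b to Zmym1 (0.98), Stard5 (0.96) and Mpp5 (0.96). Stat3 was closest to Dbr1 (0.94), Ap1s3 (0.94) and Pspc1 (0.93), Stat4 to Aplp2 (0.90), Scin (0.90) and Dgat1 (0.88), and Stat6 to Dnajb5 (0.94), Zfp597 (0.93) and Rc3h2 (0.93).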

How the data were processed

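Libraries of mouse T cell RNA were made with a TruSeq RNA kit, per the labels' protocols. The authors deposited FPKM per gene with Cufflinks confidence bounds, 1 table per library, without read counts. The submitters' processing notes name bcl2fastq, TopHat, Cufflinks and build mm9; no source used here gives versions, annotation or strand setting. Each table had 23699 entries. The 22985 symbols with every entry marked OK were kept, and repeated symbols were summed. Depth per library was estimated from the confidence bounds at 15.4 to 52.8 M fragments.

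Values were analysed as log2(FPKM + 1), a scale that understates changes of low genes, with limma 3.58.1 in R 4.3.3. A mean was fitted for each of the 10 groups outside the TAT-Cre set (21 libraries, 11 residual degrees of freedom, 8 with the run as a block). A gene was tested if it reached 1 FPKM in 2 libraries (11532 genes) and called if its p, adjusted by Benjamini and Hochberg over all tested genes of that comparison, was under 0.05. The procedure was first tested on simulated data.

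The rule on names took all 9 members in every comparison, some given as a range, up to 4 called genes of smallest p per pathway list, and the 3 genes of most similar pattern whose highest group mean reached 10 FPKM. The members, lists and tests were chosen with earlier results of these data known. Same-run libraries deviated together (51 pairs, lowest correlation 0.036), while same-numbered replicates did not in every pair (57 pairs, lowest -0.499). Alternatives were another pseudocount, filters, size factors, blocks, fits to the compared groups alone and leaving out libraries. Jak2, Trac and Adgre1 were not analysed here. The result of 1 further gene is not reported here.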

Additional observations from a re-analysis of the deposited data

Results flagged for a closer look

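The responses to stimulation of 2 groups differed in 5 cases by a test of the difference itself. WT Treg was 1 of the 2 groups each time, and no gene of 11532 was called in its own response. With the run as a block, 16% of all genes were called for WT Treg minus WT Tconv and 14% for DKO minus WT Treg. For Socs1, the response of WT Treg minus that of WT Tconv was -3.39 without a block. With the run as a block the same difference was -1.96 for Cish and 0.81 for Stat5b. The response of DKO Treg minus that of WT Treg was 0.78 for Cish and 1.73 for Socs3 with the run as a block, and neither passed without it. In WT Treg, the only group of 4, replicate 1 stood apart for Cish, with 107 FPKM. On the log2(FPKM + 1) scale its gap to the next library was 0.877 of the range, above Dixon's critical value of 0.829, and in FPKM it was 0.777. Of the 9 genes no other passed that value on either scale, and chance alone flags about 1 in 20 groups.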

How the results depend on the processing

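Without a block, the number of the 9 genes called was 4 in WT Treg against WT Tconv, 0 in p65KO, 0 in c-RelKO and 2 in DKO Treg against WT Treg, 1 in stimulated against unstimulated WT Tconv, 0 in WT Treg and 1 in DKO Treg, 2 in stimulated WT Treg against stimulated WT Tconv, 1 in stimulated DKO against stimulated WT Treg, 1 for the response of WT Treg minus WT Tconv and 0 for that of DKO minus WT Treg. In the same order, the replicate block by run called 8, 2, 4, 6, 5, 0, 4, 8, 3, 3 and 2. The replicate block by replicate number called 7, 0, 2, 5, 3, 4, 2, 4, 2, 4 and 2. Its numbers pair libraries of the same run among some groups, but not WT Treg with WT Tconv. Chosen after seeing the data, the run block without the 3 doubted libraries called 8, 0, 7, 6, 0, 5, 9, 4, 4 and 3. That list leaves out c-RelKO Treg against WT Treg, where c-RelKO Treg kept 1 library. Runs 3 and 4 alone, also chosen after seeing the data, called 7, 2, 6, 5, 0, 3, 7, 2, 2 and 1. That list leaves out p65KO Treg against WT Treg, where p65KO Treg had 1 library.

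Fitting only the groups compared called 2 in WT Treg against WT Tconv, 5 in stimulated WT Tconv, 6 in stimulated WT Treg against stimulated WT Tconv, 2 in stimulated DKO against stimulated WT Treg and 0 for the response of WT Treg minus WT Tconv, which also fell to 0 with size factors. Where a group was left with 1 library, that library was assumed to vary like those of the other groups. Leaving out 1 library each, counts ran from 3 to 4 in WT Treg against WT Tconv, 1 to 4 in DKO Treg, and 0 to 1 in stimulated DKO against stimulated WT Treg and for the response of WT Treg minus WT Tconv. The count was 0 without any 1 of the 4 libraries in stimulated against unstimulated DKO Treg, and 1 likewise in stimulated WT Treg against stimulated WT Tconv.

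A change of sign was counted where the gene was called in either fit. With the replicate-number block Stat4 was -0.82 in WT Treg against WT Tconv. In c-RelKO Treg, Stat4 was -0.55 and Stat5a -0.82 with the run block, Stat3 -0.72, Stat4 -1.02 and Stat5a -1.29 with the run block and without the doubted libraries, and Stat5a -0.95 in runs 3 and 4 alone. With that block and without those libraries Stat4 was -0.29 in DKO Treg, and Stat5a was 0.86 for the response of DKO minus WT Treg. Causes were not tested. With 2 libraries in most groups and depth known only from confidence bounds, small changes of low genes such as Socs2 in Tconv were not detectable.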
